A study of Coffea canephora with 12 samples.

Results

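The first day of induction of somatic embryogenesis in *Coffea canephora* (robusta coffee) was described by comparing the libraries of 1 dai (day after induction) with those of 0 dbi (days before induction, the day on which the leaves were cut). All genes outside the *CcGH3* family, which conjugates auxin to amino acids, were taken, which gave 25556 of the 25574 genes in the count tables. At 1 dai the samples were discs cut from plantlet leaves and kept for 1 day in the dark in shaken liquid Yasuda medium with 6-benzyladenine (BA). At 0 dbi they were leaves of in vitro plantlets on semi-solid MS medium with 1-naphthaleneacetic acid (NAA) and kinetin (KIN), under a photoperiod. Cutting, the medium, the growth regulators and the light thus changed together, and their parts in any difference cannot be told apart. The other libraries of the series came from plantlets at 14 dbi, without growth regulators, and at 9 dbi, on NAA and KIN, and from explants on BA at 2 and 21 dai.

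In somatic embryogenesis, cells of a plant organ form embryos without fertilization. NAA is a synthetic auxin, while KIN and BA are cytokinins, and in many species a pulse of auxin followed by transfer to another medium sets leaf cells on this path. Cutting a leaf also wounds it, and wounded leaves change the activity of many genes within hours. In RNA-seq each library holds a limited number of reads, so the reads of a gene measure its share of the RNA and not the amount per cell. A change in the share of a cell type in the tissue and a change of RNA within its cells cannot be told apart here.

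Each time point had 2 libraries, and the series describes them as sequencing replicates, so p-values measure the spread between libraries and not between plants. Reads in genes numbered 17083686 and 23858340 in the 1 dai libraries, against 18336495 and 27628703 in the 0 dbi libraries. The libraries of 1 dai stood apart in one respect. They held 937 and 530 genes with 1 to 9 reads, against 2089 and 2399 in the libraries of 0 dbi. Across the series, the 4 libraries of 9 dbi and 1 dai held 530 to 937 such genes and the other 8 libraries 2086 to 2633. Genes with any read numbered 17204 to 19116 in those 4 libraries and 19833 to 22257 in the other 8. Replicate 1 of 0 dbi had 17.6% of its reads at low mapping quality, against 12.3% in replicate 2 and 11.8% and 12.2% in the libraries of 1 dai. The part of these differences in the results below was not tested, except where values without the libraries or genes concerned are given. The labelled tissue was not checked against marker genes, for want of gene descriptions in the sources used here, and genes are given by their IDs alone.

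At 1 dai, 609 genes were higher than at 0 dbi and 1012 genes were lower (edgeR quasi-likelihood test over all 12 libraries, adjusted p under 0.05). Of all genes tested, *CcGH3* included, 2.94% were called higher and 4.89% lower. These calls were made among 20728 genes that passed the filter on low counts, and the other 4828 genes were not tested. No called gene overlapped between the groups, while 25.8% of all genes tested were higher in both libraries of 1 dai than in either of 0 dbi, and 30.2% were lower in both. At an unadjusted p under 0.05, 5254 genes differed. The smallest adjusted p was 0.00112. Genes that fell outnumbered those that rose by 1.66 to 1, but this split moved with the scaling. With library size in place of TMM (trimmed mean of M-values) factors, 715 genes were called higher and 739 lower, so that 49.2% of calls were higher instead of 37.6%.

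The number of calls depended on single libraries, and not every removal lowered it. Both counts rose without replicate 2 of 0 dbi. Without both libraries of 9 dbi, a fit added after seeing the data, 865 genes were called higher and 1401 lower. Without replicate 2 of 1 dai, 14 genes were called higher and 6 lower, and without replicate 1 of 1 dai 64 were called higher and 110 lower. Without replicate 1 of 0 dbi, the library with more reads at low mapping quality, the counts were 135 and 475. Leaving out a library of 2 dai, which lent the test part of its estimate of spread, gave 367 and 600 genes without its replicate 1 and 369 and 611 without its replicate 2. No called gene had the opposite sign in any of these fits. This follows largely from the calls themselves, since no called gene overlapped between the groups. It does not measure how firm the directions are.

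The shift was broad. Over the genes tested, the median log2 fold change was −0.13, with quartiles of −1.07 and 0.63. With library size alone the median was 0.05, a shift of 0.18 for all genes, so the direction of changes of that size depends on the scaling. The smallest change of a called gene was 1.04 log2 units among those that rose and −1.03 among those that fell. More than 2-fold lower were 5471 genes (26.4%), against 3479 genes (16.8%) more than 2-fold higher. More than 4-fold lower were 3020 genes (14.6%), and 1280 genes (6.18%) were more than 4-fold higher. These counts include genes with 0 reads at a time point, which numbered 1419 at 1 dai and 231 at 0 dbi among those tested. With these genes set at their bound against 3 reads per library, 2287 genes were more than 4-fold lower and 1322 more than 4-fold higher. Libraries of a time point also lay apart. Of all genes tested, 3157 (15.2%) were at least 4-fold apart between the 2 libraries of 0 dbi and 2439 (11.8%) between those of 1 dai. These compare single libraries, with 1 added to the scaled counts, and not means of 2. Among the 17091 genes with reads in all 4 libraries, 3350 were more than 2-fold lower and 2784 higher, and 1210 were more than 4-fold lower and 828 higher. The 95th percentile was 2.23 and the 5th percentile −5.14, but the lower tail holds genes with 0 reads in both libraries of 1 dai, for which a fitted fold change is no measure. At the bound, the 5th percentile was −2.94 and the median −0.09. Among the genes with reads in all 4 libraries the median was −0.04.

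**Figure D1:**
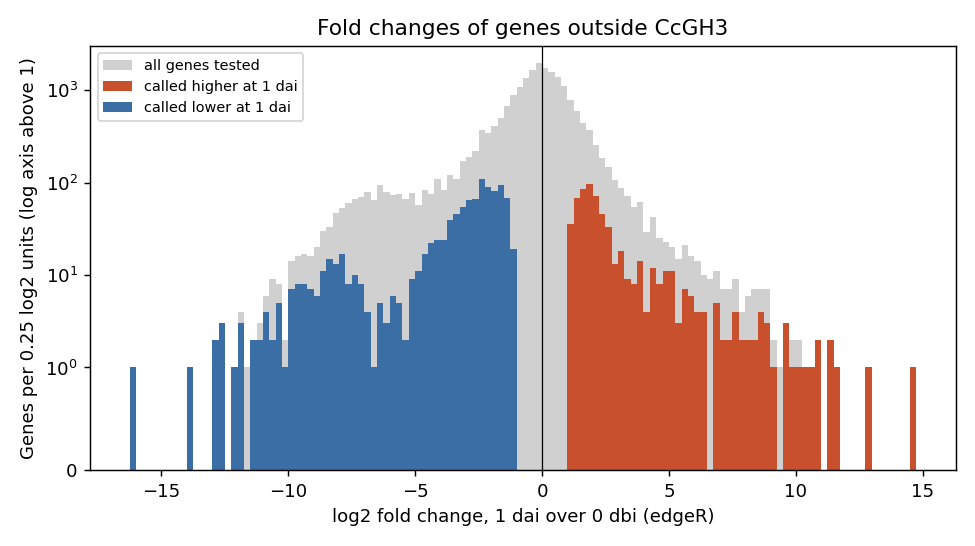
Genes outside *CcGH3* by their log2 fold change at 1 dai over 0 dbi (x axis, bins of 0.25), as the number of genes per bin (y axis, logarithmic above 1), with all genes tested in grey, the 609 called higher in red and the 1012 called lower in blue. The grey shoulder on the left below about −5 has no counterpart of that height on the right, and it includes genes with 0 reads at 1 dai, whose fold changes are no measure.

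Among the called genes, the median log2 fold change was 2.07 for those that rose and −2.65 for those that fell, or −2.63 with genes at 0 reads at their bound. More than 4-fold changes made up 324 of the 609 genes that rose and 749 of the 1012 that fell. Most calls lay at high levels. Of the 5182 genes with the highest mean level, 356 rose and 503 fell, whereas of the 5182 genes with the lowest mean level 11 rose and 99 fell. Most of the low genes called lower were without reads at 1 dai. Of all 5182 low genes, 1326 had 0 reads in both libraries of 1 dai, and of the 99 called lower 88 did. Of the 503 called lower among the high genes, 1 did. Restricted to genes with reads in all 4 libraries, a count chosen after seeing the data, 568 genes were called higher and 853 lower.

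A large part of the reads lay on other genes after 1 day. Between the means of 1 dai and 0 dbi, 35.2% of the reads in genes would have to move to other genes to make the profiles equal. For the single pairs of libraries this share was 33.3% and 33.8% against replicate 2 of 0 dbi and 40.9% and 42.1% against replicate 1 of 0 dbi. The 2 libraries of 1 dai differed from each other by 8.43% and those of 0 dbi by 27.6%, so all 4 pairs across the groups lay above both values. An exact permutation test of 2 libraries against 2 cannot go below p = 0.333, and none is given. Between 0 dbi and 9 dbi, for comparison, the 4 pairs gave 20.9% to 28.9%, and between 2 dai and 1 dai 16.2% to 19.9%.

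**Figure D2:**
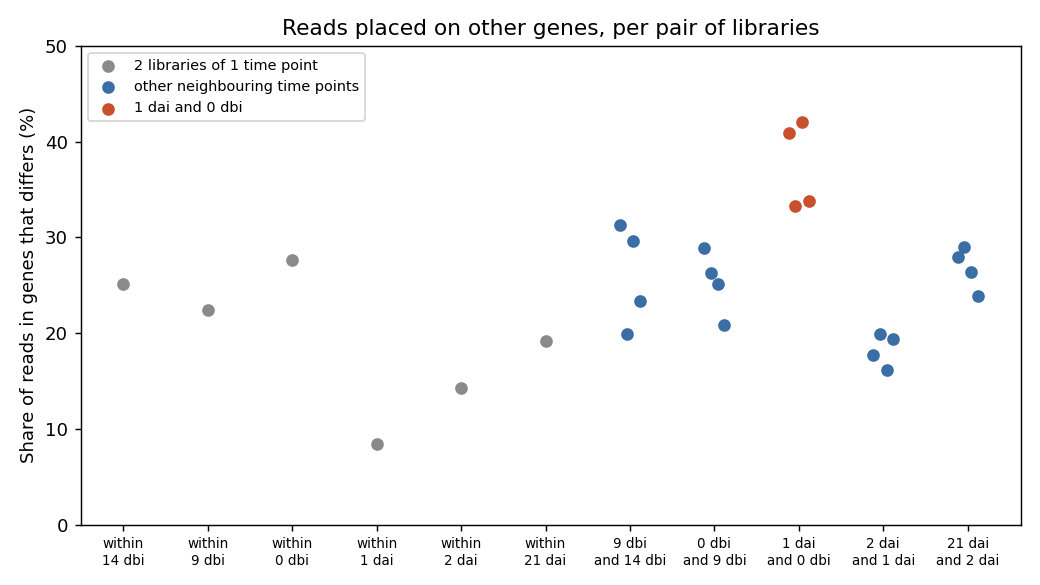
Share of the reads in genes that differs between the libraries of a pair (y axis, percent), for pairs within a time point (grey) and across neighbouring time points (blue, with 1 dai and 0 dbi in red), each point being 1 pair. The 4 pairs of 1 dai and 0 dbi, from 33.3% to 42.1%, lie above every other pair drawn.

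The change over this day was also the one with the most calls among neighbouring time points in the same fit. Where 1 dai against 0 dbi gave 609 genes higher and 1012 lower, edgeR gave 7 and 104 for 9 dbi against 14 dbi and 116 and 159 for 21 dai against 2 dai. For 0 dbi against 9 dbi it gave 27 and 0, with 2841 genes at an unadjusted p under 0.05. For 2 dai against 1 dai it called 0 genes in either direction, with 1759 genes at an unadjusted p under 0.05. The other time point with few genes of low counts, 9 dbi, is not a neighbour of 1 dai. Against it, 1 dai gave 1856 genes higher and 1292 lower. There more genes rose than fell, the reverse of the split against 0 dbi. These comparisons share libraries, and the counts were not tested against each other.

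The loss of reads was concentrated on fewer genes than the gain. A gain was found for 10967 genes and a loss for 11224. Of the gain at 1 dai, 50% went to 480 genes, and of the loss, 50% fell on 222 genes. The 8 genes with the largest gain took up 2.19% of all reads in genes, and the 8 with the largest loss gave up 4.44%. Genes called higher carried 33.0% of the gain and genes called lower 44.9% of the loss. The 10 genes with the most reads held 3.47% and 3.76% of reads in the libraries of 1 dai, against 6.39% and 6.27% in those of 0 dbi. Likewise, the genes that together held 50% of the reads numbered 1593 and 1478 at 1 dai and 1074 and 1350 at 0 dbi. The most read genes therefore held a smaller share at 1 dai than at 0 dbi, without an overlap between the groups, although fewer genes had any read. At 14 dbi 50% of the reads lay on 1194 and 1618 genes and at 9 dbi on 1543 and 1257. The numbers at 1 dai lie within that range.

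The largest loss was that of one gene, *Cc00_g15710*. It fell to 532 and 581 CPM (counts scaled to 1000000 reads in genes) at 1 dai, against 17031 and 15938 CPM at 0 dbi, which was 1.59% of all reads. The fall was 34.1-fold (log2 fold change −5.09, SE 0.76, edgeR adjusted p = 0.00683). The gene stood at 4599 to 13057 CPM in the libraries of 14 and 9 dbi, at 1086 and 1057 CPM at 2 dai and at 121 and 156 CPM at 21 dai. It thus had its highest values in the libraries of 0 dbi and stayed low in all libraries after induction.

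*Cc02_g07500* was likewise low in all libraries after induction. It had 305 and 325 CPM at 1 dai, against 7152 and 6450.0 CPM at 0 dbi, a 24.9-fold fall (log2 fold change −4.64, SE 0.82, edgeR adjusted p = 0.0124). At 21 dai it was down to 82.9 and 72.1 CPM. *Cc07_g02160* fell further, to 26.6 and 22.2 CPM at 1 dai, against 2187 and 6787 CPM at 0 dbi (206-fold, log2 fold change −7.69, SE 0.98, edgeR adjusted p = 0.00508). It was nearly gone at 21 dai, with 0.396 and 1.39 CPM. *Cc02_g11650* had 237 and 227 CPM at 1 dai, against 6133 and 1167 CPM at 0 dbi, and its adjusted p in edgeR was 0.0158. The libraries of 0 dbi differ widely for this gene, but both lie above those of 1 dai.

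The other 4 of the 8 genes with the largest loss did not pass the test. *Cc07_g05350* had 1184 and 1372 CPM at 1 dai, against 5872 and 4255 CPM at 0 dbi (edgeR adjusted p = 0.0766). *Cc09_g09500* had 370.1 and 404 CPM at 1 dai, against 3262 and 3193 CPM at 0 dbi (edgeR adjusted p = 0.0754). In both genes the groups were well apart, and the libraries of 14 dbi ranged from 673 to 8360.2 CPM for *Cc09_g09500* and from 2227 to 6097 CPM for *Cc07_g05350*, a spread that enters the same fit. DESeq2, another test on the same counts, called both lower. *Cc05_g12060* had 3504 and 4988 CPM at 1 dai, against 5177 and 12157 CPM at 0 dbi, and was not called by either tool.

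Among the gains, *Cc08_g12770* took up the most reads. It rose to 6287 and 6139 CPM at 1 dai, against 108 and 418 CPM at 0 dbi (21.1-fold, log2 fold change 4.40, SE 1.00, edgeR adjusted p = 0.0281). Its level was similar at 2 dai, with 4013 and 6488 CPM, and far lower at 21 dai, with 496 and 702 CPM. *Cc04_g09020* rose to 5374 and 5033 CPM at 1 dai, against 1430.0 and 1211 CPM at 0 dbi (3.41-fold, log2 fold change 1.77, SE 0.45, edgeR adjusted p = 0.042). This gene was even in all 6 libraries before induction, from 1211 to 1430.0 CPM, and remained above them at 2 dai and at 21 dai, with 3224 and 3317 CPM. *Cc03_g08490* rose to 2161 and 2054 CPM at 1 dai, against 327 and 225 CPM at 0 dbi (6.58-fold, edgeR adjusted p = 0.0469).

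The remaining 5 of the 8 genes with the largest gain were not called. Their groups did not overlap, but 25.8% of all genes tested were likewise higher in both libraries of 1 dai. The ranking by gain also used these same libraries, so the lack of overlap adds no support. *Cc08_g14230* had 1427 and 1449 CPM at 1 dai, against 1.47 and 50.1 CPM at 0 dbi, and kept to 679 to 1364 CPM at 2 and 21 dai. Its edgeR adjusted p was 0.0618, with the libraries of 0 dbi over 10-fold apart. *Cc02_g04100* had 1878 and 2001 CPM at 1 dai, against 164 and 342 CPM at 0 dbi (edgeR adjusted p = 0.0986). DESeq2 called both *Cc08_g14230* and *Cc02_g04100* higher. *Cc03_g09480* had 3851 and 4510.1 CPM at 1 dai, against 158 and 2134 CPM at 0 dbi (edgeR adjusted p = 0.284). For this gene and for *Cc10_g08840* the low values of 0 dbi came from replicate 1, and both were called higher without replicate 2 of 0 dbi.

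**Figure D3:**
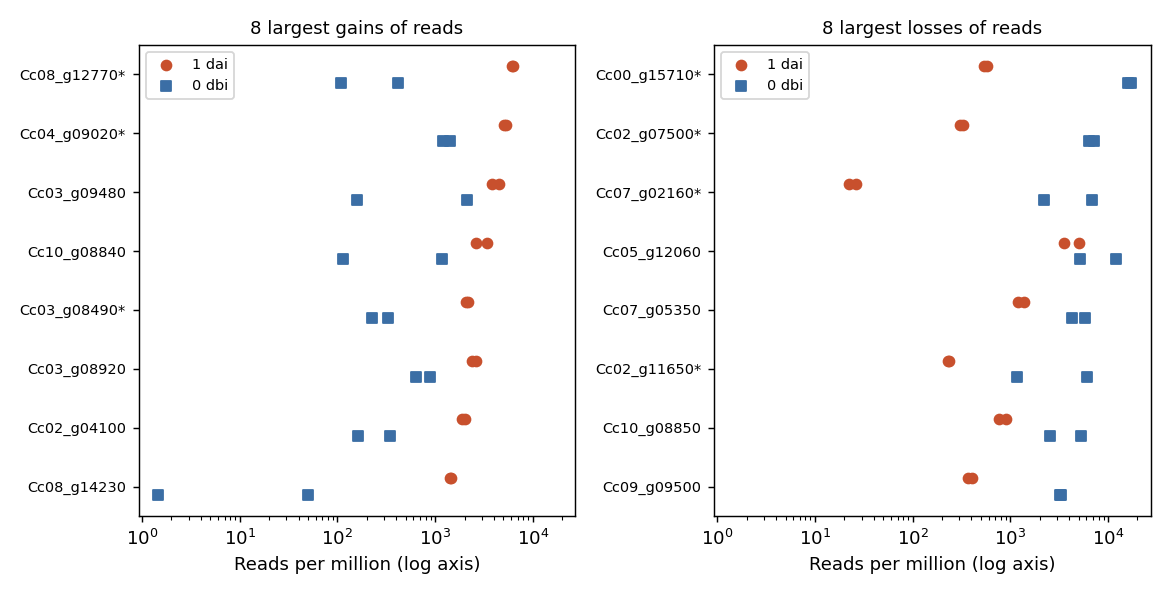
CPM (x axis, reads per 1000000, logarithmic) of the 8 genes with the largest gain (left) and the 8 with the largest loss (right), with the 2 libraries of 1 dai as red circles above those of 0 dbi as blue squares, and an asterisk on genes called by edgeR. The libraries of 1 dai lie close together for every gene, while those of 0 dbi are up to over 10-fold apart, as in *Cc08_g14230* with 1.47 and 50.1.

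Calls of single genes depended on the libraries as the counts did. Of 67 genes looked at one by one, 58 were called. Of these, 17 were called again without replicate 1 of 1 dai, 9 without replicate 2 of 1 dai, 39 without replicate 1 of 0 dbi and 49 without replicate 2 of 0 dbi. The 7 called genes named above all lost the call without either library of 1 dai. *Cc08_g12770* also lost it without replicate 1 of 0 dbi, and *Cc04_g09020* and *Cc03_g08490* lost it without any single library of 0 dbi, 2 dai or 21 dai. Their highest adjusted p over the alternatives was 0.108 for *Cc00_g15710*, 0.134 for *Cc02_g07500*, 0.0787 for *Cc07_g02160*, 0.149 for *Cc02_g11650*, 0.131 for *Cc08_g12770*, 0.209 for *Cc04_g09020* and 0.187 for *Cc03_g08490*. In all, 9 genes kept the call under every alternative that tested them, namely *Cc07_g16980*, *Cc11_g16420*, *Cc02_g21670*, *Cc06_g11480*, *Cc06_g13730*, *Cc08_g12780*, *Cc05_g06140*, *Cc05_g06170* and *Cc02_g19370*. Of these, 8 rose and *Cc02_g19370* fell.

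Genes without reads on the day of induction and with reads 1 day later were few in these libraries. In all, 44 genes had 0 reads in both libraries of 0 dbi and at least 1 read in both of 1 dai. Their median level at 1 dai was 1.75 CPM, while 0 reads in a library of 0 dbi still allow a level of 0.109 or 0.164 CPM (3 reads, counting error only). At least 10 reads in both libraries of 1 dai were found for 27 genes and at least 1 CPM in both for 20. Of the 34 genes tested, 10 were called higher, against 2.94% of all genes tested. The genes were chosen by the same reads that the test compares, so these calls are no separate support. The count rests on replicate 2 of 0 dbi, which is deeper and has a lower share of reads at low mapping quality. Which of these matters was not tested. Without this library the count was 471. It was 102 without replicate 1 of 1 dai and 133 without replicate 2 of 1 dai. Both libraries of 1 dai also held few genes with 1 to 9 reads, 937 and 530, against 2089 and 2399 at 0 dbi. From 14 to 9 dbi, the other time point with few such genes, only 14 genes gained reads in this way. The part of this shortage in the count of 44 was not tested.

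*Cc07_g16980* was the highest of them, with 144 and 123 CPM at 1 dai, against 0 reads in both libraries of 0 dbi. This was at least 983-fold higher, against 3 reads per library (edgeR adjusted p = 0.00258). This bound and those of the genes below are ratios of CPM, without TMM factors. The rise was brief. The gene had 11.7 and 15.3 CPM at 2 dai and 0 reads in both libraries of 21 dai, and before induction no library exceeded 0.536 CPM. *Cc08_g09610* had 48.1 and 36.3 CPM at 1 dai and 0 reads in all 6 libraries before induction, which was at least 310.3-fold higher than at 0 dbi (edgeR adjusted p = 0.00692). It then had 26.3 and 20.04 CPM at 2 dai and 1.39 and 0.324 CPM at 21 dai.

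Another course was that of *Cc00_g27520*, which also had 0 reads in all 6 libraries before induction. It had 7.38 and 12.3 CPM at 1 dai (at least 72.2-fold higher than at 0 dbi, edgeR adjusted p = 0.00628), 4.45 and 14.1 CPM at 2 dai, and 112 and 131 CPM at 21 dai. *Cc09_g01360* was again without reads before induction and had 12.4 and 10.02 CPM at 1 dai (at least 82.4-fold higher, edgeR adjusted p = 0.0155). The calls of *Cc08_g09610*, *Cc00_g27520* and *Cc09_g01360* were lost without replicate 2 of 1 dai, and that of *Cc09_g01360* also without its replicate 1 or replicate 1 of 0 dbi. Over the 44 genes, 32 had reads in both libraries of 2 dai and 19 in both of 21 dai, while 34 had 0 reads in both libraries of 9 dbi and 23 in both of 14 dbi.

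Some genes with a few reads at 0 dbi rose as sharply. *Cc11_g16420* had 245 and 268 CPM at 1 dai, against 0 and 0.109 CPM at 0 dbi (edgeR adjusted p = 0.00112), and declined through 98.2 and 129.5 CPM at 2 dai to 12.0 and 16.3 CPM at 21 dai. *Cc02_g21670* had 189 and 199 CPM at 1 dai, against 0 and 0.181 CPM at 0 dbi (edgeR adjusted p = 0.00166). *Cc06_g11480* had 120.1 and 136 CPM at 1 dai, against 0 and 0.145 CPM at 0 dbi (edgeR adjusted p = 0.00166), and reached 198 and 139.8 CPM at 2 dai. Each of the 3 genes stood at 0.151 CPM or less in the libraries of 14 and 9 dbi.

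Genes with reads at 0 dbi and none at 1 dai were far more numerous, with 1096 against 44. Most had been low, with a median of 0.462 CPM at 0 dbi. At least 10 reads in both libraries of 0 dbi were found for 346 of them and at least 1 CPM in both for 132. Of the 841 genes tested, 125 were called lower, against 4.89% of all genes tested. Here too the choice of genes used the reads that the test compares. Without replicate 1 of 1 dai the count was 2163, and without replicate 1 of 0 dbi it was 2336.

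For most of these genes the reads were present again 1 day later. Both libraries of 2 dai held reads for 819 of the 1096 genes, both of 14 dbi for 863 and both of 21 dai for 687. By contrast, 556 had 0 reads in both libraries of 9 dbi, the other time point with few genes of low counts. At the level these genes had at 2 dai, a median of 11.6 reads would have been counted over both libraries of 1 dai, and 10 or more for 585 genes. Of the 18308 genes with reads in all 8 libraries of 14 dbi, 0 dbi, 2 dai and 21 dai, 504 had 0 reads in both libraries of 1 dai, 901 in both of 9 dbi and 216 in all 4. Neighbouring time points differed in the same way whenever 1 member of the pair was 9 dbi or 1 dai. From 14 to 9 dbi, 1885 genes lost all reads and 14 gained them, and from 9 to 0 dbi 7 lost them and 1500 gained them. From 1 to 2 dai 13 lost them and 1439 gained them, against 190 and 264 from 2 to 21 dai. Between 9 dbi and 1 dai, both with few genes of low counts, 204 lost them and 762 gained them. An absence of reads in the plant and one in the making of the 1 dai libraries or files cannot be told apart for the 1096 genes. They held 0.169% of all reads in genes at 0 dbi, which was 0.478% of the loss.

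The called genes with the largest fitted falls belonged to this group. The 12 largest all had 0 reads in both libraries of 1 dai, and in each the libraries of 0 dbi were at least 10-fold apart. *Cc04_g10090* had 0 reads at 1 dai, against 699 and 0.362 CPM at 0 dbi (edgeR adjusted p = 0.0345). *Cc11_g08360* had 0 reads at 1 dai, against 0.273 and 75.9 CPM at 0 dbi (edgeR adjusted p = 0.0371). In the first the high library was replicate 1 and in the second replicate 2. Both had lost most of their level at 2 dai as well, with 0.648 and 0.602 CPM for *Cc04_g10090* and 0.259 and 0.164 CPM for *Cc11_g08360*. The call of *Cc04_g10090* was lost without replicate 1 of 0 dbi, and both calls were lost without either library of 1 dai or of 2 dai. That of *Cc04_g10090* was lost without either library of 21 dai too.

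With reads in all 4 libraries required, a ranking chosen after seeing the data, the largest rises were those of *Cc06_g13730*, *Cc08_g12780* and *Cc05_g06170*. *Cc06_g13730* had 105 and 94.4 CPM at 1 dai, against 0.109 and 0.253 CPM at 0 dbi (log2 fold change 8.82, SE 0.76, edgeR adjusted p = 0.00166). *Cc08_g12780*, next to *Cc08_g12770* in the annotation, had 114 and 93.4 CPM at 1 dai, against 0.0545 and 0.326 CPM at 0 dbi (log2 fold change 8.76, SE 0.66, edgeR adjusted p = 0.00112). It stood at 151 and 165 CPM at 21 dai, when *Cc08_g12770* had 496 and 702 CPM. *Cc06_g00570* reached 677 and 682 CPM at 1 dai, against 8.34 and 8.04 CPM at 0 dbi (72-fold, edgeR adjusted p = 0.0213), and 1166 and 1836 CPM at 2 dai. Its call was lost without any single library of 1 dai or 0 dbi.

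Among the falls in that ranking, *Cc02_g19370* had 0.702 and 0.0838 CPM at 1 dai, against 58.8 and 82.0 CPM at 0 dbi (log2 fold change −7.76, SE 0.82, edgeR adjusted p = 0.00258). It had 54.6 to 324 CPM in the libraries of 14 and 9 dbi and at most 3.33 CPM in those of 2 and 21 dai. *Cc11_g08370*, the neighbour of *Cc11_g08360*, had 1.99 and 2.14 CPM at 1 dai, against 249 and 143 CPM at 0 dbi (110.2-fold, edgeR adjusted p = 0.00685). *Cc00_g14320* had 41.2 and 30.1 CPM at 1 dai, against 1562 and 2192 CPM at 0 dbi (60.2-fold, edgeR adjusted p = 0.00748). The calls of *Cc11_g08370* and *Cc00_g14320* were lost without either library of 1 dai.

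Called genes also lay side by side. In the order of the RefSeq annotation of the AUK_PRJEB4211_v1 assembly, 38 pairs of neighbouring tested genes both rose, 90 both fell and 64 moved in opposite directions, of 19464 pairs. With 2.94% of all genes tested called higher and 4.89% lower, some such pairs would arise in any order of genes. Their expected number was not computed. Runs of at least 3 neighbours called in one direction numbered 2 among genes that rose and 9 among genes that fell, with 35 genes in all. The longest run had 5 genes, *Cc05_g06130* to *Cc05_g06170*, and all of them rose. Where neighbours are near-identical copies their reads may have been shared between them by the counting, and their sequences were not compared here.

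In this run, *Cc05_g06130* had 138 and 158 CPM at 1 dai, against 3.11 and 1.74 CPM at 0 dbi (52.8-fold, edgeR adjusted p = 0.00674). *Cc05_g06140* had 133 and 180.0 CPM at 1 dai, against 1.85 and 2.82 CPM at 0 dbi (58.5-fold, edgeR adjusted p = 0.00112). *Cc05_g06150* had 171 and 232 CPM at 1 dai, against 4.47 and 3.15 CPM at 0 dbi (45.9-fold, edgeR adjusted p = 0.00544). In these 3 genes the libraries of a group were less than 2-fold apart.

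The other 2 genes of the run differed. *Cc05_g06160* had 358 and 402 CPM at 1 dai, against 21.1 and 1.59 CPM at 0 dbi (28.2-fold, edgeR adjusted p = 0.0416), with its higher value at 0 dbi in replicate 1. *Cc05_g06170* had 378 and 368 CPM at 1 dai, against 1.2 and 0.507 CPM at 0 dbi (382-fold, log2 fold change 8.58, SE 0.62, edgeR adjusted p = 0.00112). All 5 were at or below 2.04 CPM in the libraries of 14 and 9 dbi. All 5 were still at 18.4 CPM or more in every library of 2 and 21 dai, with *Cc05_g06130* lowest at 21 dai, at 18.4 and 38.9 CPM. Without replicate 2 of 1 dai *Cc05_g06130*, *Cc05_g06150* and *Cc05_g06160* lost the call, and *Cc05_g06160* also lost it without replicate 1 of 1 dai, replicate 2 of 0 dbi or any single library of 2 or 21 dai, and with only the 4 libraries compared. The highest adjusted p over the alternatives was 0.0682, 0.0567 and 0.164 for these 3 genes.

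**Figure D4:**
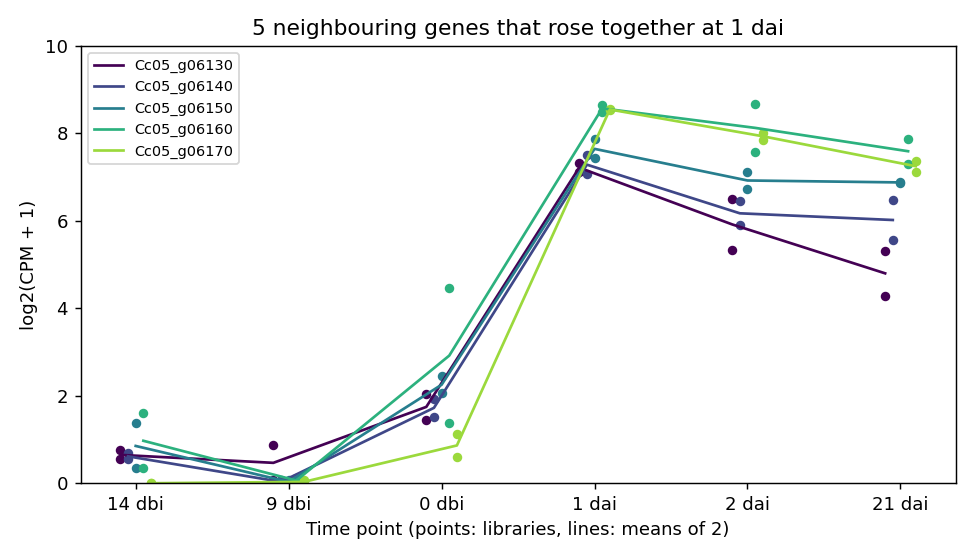
Level of the 5 neighbouring genes *Cc05_g06130* to *Cc05_g06170* as log2(CPM + 1) (y axis) at the 6 time points (x axis), with each library as a point and the mean of 2 libraries as a line. All 5 lines step up at 1 dai, with at least 133 CPM in both libraries of 1 dai, against at most 21.1 CPM in those of 0 dbi, and every library of 2 and 21 dai has 18.4 CPM or more.

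The runs of genes that fell had 3 genes each. *Cc09_g10740*, *Cc09_g10750* and *Cc09_g10760* were one of them. *Cc09_g10750* had 10.6 and 11.5 CPM at 1 dai, against 257 and 99.6 CPM at 0 dbi, and *Cc09_g10760* had 22.6 and 19.1 CPM at 1 dai, against 731 and 145 CPM at 0 dbi. A pair of neighbours in opposite directions stood among the largest shifts of reads, singled out after their values were seen. *Cc10_g08840* had 2614 and 3427 CPM at 1 dai, against 114 and 1164 CPM at 0 dbi, while *Cc10_g08850* had 768 and 909 CPM at 1 dai, against 5274 and 2564 CPM at 0 dbi. Neither passed the test in edgeR (adjusted p = 0.216 for *Cc10_g08840* and 0.0989 for *Cc10_g08850*), while DESeq2 called *Cc10_g08850* lower and *Cc10_g08840* was called higher by edgeR without replicate 2 of 0 dbi.

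By the prefix of the gene ID, the genes called higher made up 1.82% to 4.12% of those tested and the genes called lower 2.55% to 5.48%. Both shares were lowest for the prefix Cc00. The prefix Cc09 had the highest share of genes called higher, with 37 of 897, and Cc11 the highest share called lower, with 79 of 1442. These differences were not tested.

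The called genes were then followed in the libraries that had no part in the contrast. Between 2 dai and 14 dbi, which share no library with 1 dai and 0 dbi, 288 of the 609 genes that rose (47.3%) were called higher, against 2.12% of all genes tested, and 605 had the same sign. Of the 1012 genes that fell, 387 (38.2%) were called lower, against 2.82% of all genes, and 970 had the same sign. Among the 19107 genes not called at 1 dai these shares were 0.790% higher and 1.03% lower. Of these genes, 50.8% had the sign of a rise and 48.8% that of a fall. In this comparison none of the 4 libraries belongs to the time points with few genes of low counts. In both time points replicate 1 had more reads at low mapping quality, with 20.2% at 2 dai and 18.3% at 14 dbi, against 12.3% at 2 dai and 11.2% at 14 dbi in replicate 2, and its part in these counts was not tested.

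Between 21 dai and 9 dbi, 334 of the 609 genes (54.8%) were called higher, against 13.8% of all genes tested, and 626 of the 1012 (61.9%) lower, against 9.03%. In the opposite direction went 3 of the 609 and 54 of the 1012. The levels of these libraries did not enter the contrast that chose the genes, but their spread entered the shared fit. Genes with a small spread in that fit are favoured in each contrast, so the shares of calls are not independent of the choice.

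In shares of reads, the 609 genes held 14.4% and 14.7% in the libraries of 1 dai, against 2.51% and 3.38% in those of 0 dbi, values that follow from how the genes were chosen. In the other libraries they held 2.81% to 3.40% at 14 and 9 dbi, 10.9% and 11.4% at 2 dai and 7.44% and 8.01% at 21 dai. The 1012 genes held 3.27% and 3.22% at 1 dai, against 19.8% and 18.3% at 0 dbi. They held 14.3% to 20.3% at 14 and 9 dbi, 4.33% and 4.17% at 2 dai and 3.16% and 3.33% at 21 dai.

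**Figure D5:**
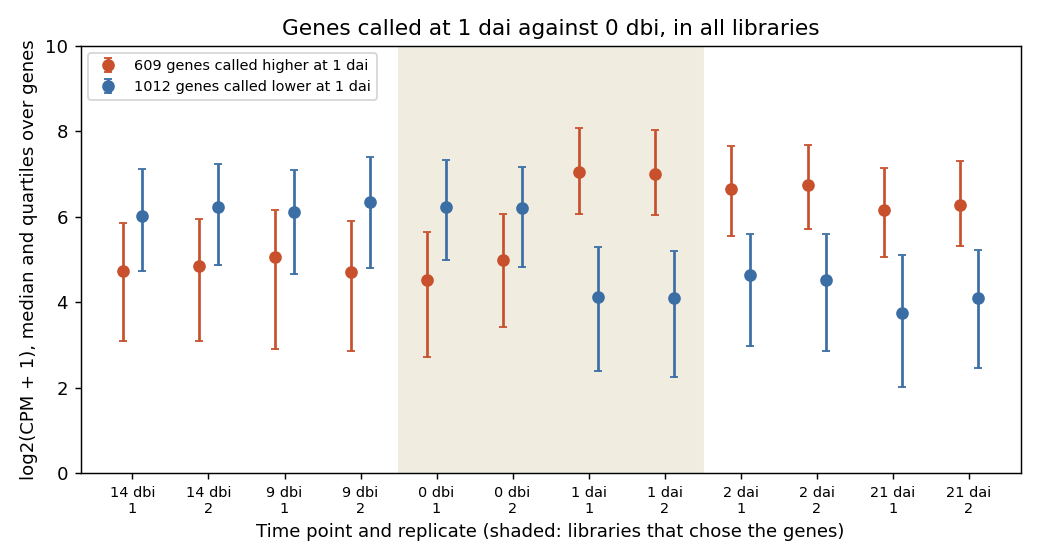
Level of the 609 genes called higher (red) and the 1012 called lower (blue) at 1 dai, as the median of log2(CPM + 1) over genes with quartiles as bars (y axis), in each of the 12 libraries in order of time (x axis), with the 4 libraries that chose the genes shaded. Outside the shading, the red medians lie between 4.71 and 5.06 before induction and between 6.15 and 6.74 after it, and the blue medians between 6.02 and 6.35 before and between 3.74 and 4.64 after.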

How the data were processed

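The authors deposited a count table for each of 12 libraries, with whole-number counts of reads for 25574 genes and 5 lines of unassigned reads. Per the submitters' processing notes, FastQC 0.11.5, cutadapt 1.14 and HTSeq 0.10.0 were used. Neither aligner nor strand setting nor genome build is given in the sources used here. Unassigned reads entered neither library sizes nor tests. In the 4 libraries compared they left 47.9% to 56.4% of reads in genes, with 26.1% to 33.4% not aligned.

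Genes were tested with edgeR 4.0.16 (R 4.3.3, limma 3.58.1) by a quasi-likelihood fit over all 12 libraries, with time point as the only factor, TMM factors and filterByExpr. Genes with a p under 0.05 after Benjamini-Hochberg adjustment over the 20745 genes tested were called. DESeq2 1.42.0, other scalings and filters, a replicate block, a term for low mapping quality and fits without single libraries were alternatives. The steps were run on counts simulated from the fitted spread, as a check of the code. Those counts lack the shortage of low counts at 1 dai, so the check does not bear on it. CPM are counts scaled to 1000000 reads in genes, and the share of reads moved is the sum over genes of the absolute differences in percent of reads, divided by 2. Fold changes come from the TMM-scaled fit, except the bounds of single genes with 0 reads, which are ratios of CPM without TMM factors.

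Named genes were, in each direction, the 12 called genes with the largest fold change that did not overlap and averaged at least 100 normalized counts in the higher group, the 5 switched genes with the highest CPM, and the 8 genes with the largest gain or loss of reads. The ranking with reads in all 4 libraries and the genes of the longest run were added. Members and lists were chosen with earlier results of these data known. All 25574 IDs matched the RefSeq locus tags, which served for the order of genes only. In all, 26 keyword lists of pathways and cell types were not applied for want of gene descriptions in the sources used here. The libraries of a time point differed by more than sampling noise and were counted as 2. Deviations from the means of a time point were correlated between same-numbered libraries of all 15 pairs of time points. Since 5 values exceeded 0.1, and that of 0 dbi with 1 dai did not, the block stayed an alternative.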

Additional observations from a re-analysis of the deposited data

How the results depend on the processing

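Each direction of a called gene held under all alternatives that tested it. Since no called gene overlapped between the groups, leaving out a library could hardly reverse one, so this does not measure how firm the directions are. DESeq2 called 1401 genes higher and 2175 lower, and it called all 1621 genes again. With only the 4 libraries compared the counts were 216 and 303, with 444 of the 1621 called again. Of the 40 named genes, 31 were called in the fit reported and 16 in this one, 2 of them not among the 31. Library size alone moved the median log2 fold change to 0.0452, and at least 10 counts in every library moved it to −0.0302. With that minimum 6 of the named genes were called, and 7 with reads required in all 4 libraries (added after seeing the data), which left out most of the others. The 8 libraries under 15% low mapping quality, also added after seeing the data, which leave 1 library at 0 dbi, gave 105 and 252 calls and 13 named genes. Without both libraries of 9 dbi, likewise added, 865 and 1401 genes were called. Genes switched on numbered 27 at 10 reads and 20 at 1 CPM in both libraries, and genes switched off 346 and 132.

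Leaving out each library in turn gave 14 to 849 genes called higher and 6 to 1424 lower, medians of −0.25 to 0 and 4 to 33 named genes called. In such a fit a lone library is assumed to vary like the other time points. Over the 4 libraries compared, genes switched on numbered 49 to 471, genes switched off 1246 to 2336, and the reads moved were 33.1% to 41.2%. The cause of these moves was not tested.

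The replicate block changed the counts to 702 higher and 994 lower, with 1467 of the 1621 called again and 27 of the named genes called. The correlation of deviations between 0 dbi and 1 dai was −0.02, while 5 of the 6 correlations among 14 dbi, 0 dbi, 2 dai and 21 dai were 0.25 to 0.38. At those time points replicate 1 is the library with more reads at low mapping quality.

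Depth limits the description of genes under about 10 reads. Both libraries of 1 dai hold few genes with 1 to 9 reads, 937 and 530, at 17083686 and 23858340 reads in genes. Replicate 1 of 21 dai holds 2633 such genes at 10091539 reads. The cause of the shortage at 1 dai was not tested.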

Other observations

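Several other genes that rose at 1 dai differed in what followed. *Cc04_g15400* had 70.4 and 56.0 CPM at 1 dai, against 0.545 and 0.181 CPM at 0 dbi (edgeR adjusted p = 0.00508), and was still at 54.0 and 44.3 CPM at 21 dai. *Cc06_g04730* had 78.1 and 83.7 CPM at 1 dai, against 0.545 and 0.217 CPM at 0 dbi (edgeR adjusted p = 0.00489), and 10.7 and 8.58 CPM at 21 dai. *Cc06_g09870* had 183 and 181 CPM at 1 dai, against 1.42 and 1.41 CPM at 0 dbi (edgeR adjusted p = 0.00941), and 163 and 206 CPM at 2 dai. All 3 calls were lost without replicate 2 of 1 dai.

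Among the genes that fell, the neighbours *Cc07_g11710* and *Cc07_g11720* both passed the test. *Cc07_g11710* had 0.0585 and 1.01 CPM at 1 dai, against 69.7 and 90.3 CPM at 0 dbi (edgeR adjusted p = 0.00692). *Cc07_g11720* had 0.176 and 0.0838 CPM at 1 dai, against 11.8 and 83.4 CPM at 0 dbi (edgeR adjusted p = 0.00564). Neither exceeded 0.907 CPM in a library of 2 or 21 dai. Both calls were lost without either library of 1 dai. Genes with 0 reads in both libraries of a time point numbered 5851 at 1 dai and 6681 at 9 dbi, against 3186 to 3556 at the other 4 time points.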
